A study of Mus musculus with 6 samples.

Results

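Connexins and pannexins are membrane proteins that form wide pores. The genes described here are the connexins Gja1, Gjc1, Gja4 and Gjb2 and the pannexins Panx1, Panx2 and Panx3. They were taken from a given list of 7 genes, by keeping probe sets whose platform annotation names exactly 1 gene. All 7 were measured, each by 1 probe set, among 19938 genes in all. Gja1 encodes connexin43, Gjc1 connexin45, Gja4 connexin37 and Gjb2 connexin26.

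RNA came from MC3T3-E1, an established line of pre-osteoblasts that the labels trace to the calvaria of newborn C57BL/6 mice. Untreated cells grown in 10% serum and α-MEM free of ascorbic acid make up the undifferentiated group (3 arrays). The differentiated group (3 arrays) was induced from confluence for 14 days in DMEM with 10% serum, 0.1 µM dexamethasone, 0.2 mM ascorbic acid-2-phosphate, 10 mM β-glycerophosphate and 1 mM sodium pyruvate. Base medium, time and the added compounds differ together and cannot be told apart, the density of the untreated cells is not stated, and the arrays are samples of 1 cell line. The replicates are called independent in the design text, without saying what separated them, so p-values measure the spread between these samples.

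A ring of connexin subunits makes a hemichannel, and hemichannels of touching cells dock into a gap junction that passes ions and small metabolites. Connexin43 is the main gap junction protein of osteoblasts and osteocytes, where it couples the cells and carries signals of load and of hormones. Connexin45 forms channels with other conductance and selectivity and can mix with connexin43. Pannexins resemble connexins in fold but not in sequence and act mostly as single-membrane channels that release ATP, which then acts on P2 receptors of nearby cells. Panx3 is the pannexin best known from osteoblasts and chondrocytes.

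The RefSeq promoter table held 4 of the 7 genes, Gja1, Gja4, Gjb2 and Panx1. The sequences of Gja1 and Panx1 are printed because both genes were lower in differentiated cells. Each run is the 250 bases before the transcription start, 5′ to 3′ on the gene's strand, in build GRCm38.p6. Gja1 is at chr10:56377050-56377299 on the plus strand and Panx1 at chr9:15045479-15045728 on the minus strand. Capitals mark matches to the AP-1 motif (TGANTCA) in Gja1 and to the RUNX motif (TGTGGT or TGCGGT) in Panx1, each searched on both strands.
Gja1: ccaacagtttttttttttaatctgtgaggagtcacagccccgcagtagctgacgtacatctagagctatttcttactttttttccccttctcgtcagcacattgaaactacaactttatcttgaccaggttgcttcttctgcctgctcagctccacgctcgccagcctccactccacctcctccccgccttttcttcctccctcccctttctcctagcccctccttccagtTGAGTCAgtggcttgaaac
Panx1: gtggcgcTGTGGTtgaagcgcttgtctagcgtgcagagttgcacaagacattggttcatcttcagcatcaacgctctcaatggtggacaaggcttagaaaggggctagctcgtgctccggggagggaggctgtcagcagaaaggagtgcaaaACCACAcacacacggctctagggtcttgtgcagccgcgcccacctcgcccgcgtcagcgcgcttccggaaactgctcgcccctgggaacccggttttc

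The AP-1 match of Gja1 lies 19 to 13 bases before the start. AP-1 matches were found in 6.75% of the 32851 promoters of the same length. Panx1 held a pair of RUNX matches, at 243 to 238 bases before the start and, on the opposite strand, at 98 to 93 bases. RUNX matches were found in 18.6% of promoters. Gja4 held 1 match to the GC box (GGGCGG) and Gjb2 held 2, against 32.7% of promoters with any. No match to the glucocorticoid response element (found in 0.387% of promoters) was found in these 4 windows. The motifs do not overlap one another here, and a match describes only the letters.

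The values are log2 expression with each probe set centred on its median over the 6 arrays. Differences between arrays can be read from them, while the level of a gene, and whether it was expressed at all, cannot. The design compares uninduced with induced cells. A gene was called changed at a Benjamini-Hochberg adjusted p under 0.05 over all genes in limma's moderated test, and errors of changes are limma's standard errors. Medians over all probe sets ran from -0.00499 to 0.00838 over the arrays, and the median log2 fold change over all genes was 0.02. The deposited processing pulls array medians toward each other, so they are no test of likeness between arrays. The line's bone genes moved both ways. Of 6 osteoblast markers measured, 3 were higher and 2 lower, against 16.4% and 19.1% of all genes. Bone sialoprotein Ibsp was 8.72-fold higher, Postn 3.17-fold and Alpl, the tissue-nonspecific alkaline phosphatase, 1.95-fold. The type I collagen chain Col1a1 and Sp7 were each 1.32-fold lower, and Col1a2 did not pass.

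Gja1 fell 5.57-fold in differentiated cells, Panx1 fell 1.38-fold and Gjc1 1.34-fold. Gja4, Gjb2, Panx2 and Panx3 did not pass the test, with changes from 0.07 to 0.15 on the log2 scale. Thus 3 of 7 members were lower and 0 higher, in limma with and without the adjustment of p. Over all genes, 35.5% were called, 19.1% lower and 16.4% higher. The count called in either direction, 3 of 7, stands close to the 35.5%. All 3 were lower, a larger share than the 19.1% over all genes, and 7 genes are few. This difference in direction was not tested. A fall of at least 2-fold was called for 1 member, Gja1, and for 2.28% of all genes. In RNA from whole cultures, fewer cells that use a gene and less of its RNA per cell cannot be told apart.

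**Figure D1:**
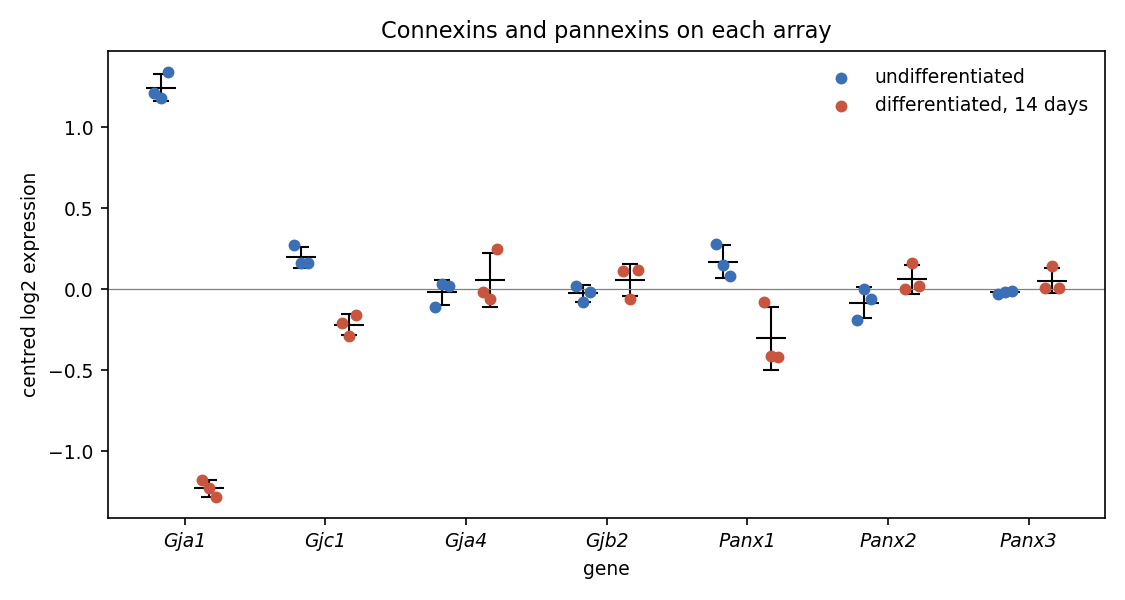
Centred log2 expression (vertical axis) of the 7 genes on each of the 3 undifferentiated (blue) and 3 differentiated (red) arrays; points are arrays, horizontal marks are group means and bars are 1 SD. Gja1 stands apart from the others, with all undifferentiated arrays at 1.18 or above and all differentiated arrays at -1.18 or below.

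Gja1 (probe set 10363173) was at 1.21, 1.18 and 1.34 on undifferentiated replicates 1 to 3 and at -1.18, -1.23 and -1.28 on differentiated replicates 1 to 3. The groups lay far apart: the lowest undifferentiated array was 2.37 log2 units, or 5.17-fold, above the highest differentiated one. Group means were 1.25 ± 0.08 and -1.23 ± 0.05 (SD, n = 3 each). The log2 fold change was -2.48 ± 0.06 (limma, 95% interval -2.62 to -2.34, adjusted p = 2.10e-08), which is 5.06- to 6.13-fold lower. Only 46 of the 19938 genes had a lower log2 fold change, which puts Gja1 in the lowest 0.236%.

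Gjc1 (probe set 10391762), the other connexin that fell, was at 0.27, 0.16 and 0.16 in undifferentiated and at -0.21, -0.29 and -0.16 in differentiated replicates 1 to 3. The groups did not overlap, with a gap of 0.32. Means were 0.20 ± 0.06 and -0.22 ± 0.07 (SD, n = 3 each), and the log2 fold change was -0.42 ± 0.06 (limma, 95% interval -0.55 to -0.28, adjusted p = 5.08e-04). The within-array difference Gja1 minus Gjc1, which compares changes and not levels, went from 1.05 ± 0.12 in undifferentiated to -1.01 ± 0.10 in differentiated arrays (SD, n = 3 each). This shift of -2.06 is a 4.17-fold unequal change. An exact two-sided permutation test gave p = 0.1, the smallest that 3 against 3 arrays allow, and 0.133 after adjustment over the 4 pairs of members compared.

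The remaining pair of connexins, better known from other tissues, showed no change past the threshold. Gja4 (probe set 10516481), known from the endothelium of arteries, was at -0.11, 0.03 and 0.02 in undifferentiated and at -0.02, -0.06 and 0.25 in differentiated replicates. The groups overlapped, and differentiated replicate 3 stood above every other array. The log2 fold change was 0.07 ± 0.09 (limma, 95% interval -0.12 to 0.27, adjusted p = 0.584), so the interval spans 0.917- to 1.21-fold. Without differentiated replicate 3 it was -0.02 (adjusted p = 0.871). Of 9 endothelial markers measured beside it, 1 was higher (Vwf, 0.23 ± 0.06, adjusted p = 0.0226), 0 were lower and the median was 0.06. For this and the marker lists below, the shares over all genes are 16.4% higher and 19.1% lower. The Vwf call was lost after cyclic loess (0.11, adjusted p = 0.124) and without any 1 array other than undifferentiated replicate 3 (adjusted p from 0.0572 to 0.0752), which leaves 0 endothelial markers called. Without undifferentiated replicate 3, Pecam1 passed as well (0.21, adjusted p = 0.0238), which makes 2 endothelial markers higher. The mean centred value of the 9 markers ran from -0.10 to 0.01 on undifferentiated and from 0.01 to 0.05 on differentiated arrays. The part of these markers in the Gja4 values was not tested.

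Gjb2 (probe set 10420362), a connexin of epithelia and the inner ear, was at 0.02, -0.08 and -0.02 in undifferentiated and at 0.11, -0.06 and 0.12 in differentiated replicates. Differentiated replicate 2 lay among the undifferentiated arrays. The log2 fold change was 0.08 ± 0.06 (limma, 95% interval -0.06 to 0.23, adjusted p = 0.375). Among 9 epithelial and keratinocyte markers, 1 was lower, the keratin Krt14 (-2.04 ± 0.11, 4.13-fold), 0 were higher, and the median was 0.03. The marker means ran from -0.01 to 0.17 on undifferentiated and from -0.10 to -0.07 on differentiated arrays. The lower means rest on Krt14, as the other 8 markers changed by -0.01 (Cdh1 and Krt18) to 0.18 (Krt10). The part of the 9 markers in the Gjb2 values was not tested. The changes of Gja4 and Gjb2 differed by -0.01 on the log2 scale (exact two-sided permutation p = 0.9).

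Panx1 (probe set 10590983), a widely expressed ATP release channel, was at 0.28, 0.15 and 0.08 in undifferentiated and at -0.08, -0.41 and -0.42 in differentiated replicates. The groups did not overlap, but differentiated replicate 1 came within 0.15 of the lowest undifferentiated array and stood well above the other two differentiated arrays. Means were 0.17 ± 0.10 and -0.30 ± 0.20 (SD, n = 3 each). The log2 fold change was -0.47 ± 0.10 (limma, 95% interval -0.69 to -0.24, adjusted p = 0.00521), or 1.18- to 1.62-fold lower. Its spread within groups, 0.157, was the widest of the 7 genes.

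Panx2 (probe set 10426150), known mainly from the nervous system, was at -0.19, 0.00 and -0.06 in undifferentiated and at 0.00, 0.16 and 0.02 in differentiated replicates. The differentiated arrays lay above the undifferentiated ones by a gap that rounds to 0.00, and the log2 fold change of 0.15 ± 0.07 did not pass (limma, 95% interval -0.01 to 0.31, adjusted p = 0.15). Of 8 neural and glial markers, 1 was higher (the calcium-binding protein S100b, 1.45 ± 0.11), 2 were lower (Tubb3, -0.97 ± 0.12, and Syn1, -0.22 ± 0.07) and the median was 0.01. The marker means ran from -0.02 to -0.01 on undifferentiated and from 0.05 to 0.06 on differentiated arrays, and their part in the Panx2 values was not tested.

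Panx3 (probe set 10592355) was at -0.03, -0.02 and -0.01 in undifferentiated and at 0.01, 0.14 and 0.01 in differentiated replicates. The groups were apart by 0.01, and differentiated replicate 2 carried most of the difference. The log2 fold change was 0.07 ± 0.06 (limma, 95% interval -0.06 to 0.20, adjusted p = 0.394), so the interval ends at 1.15-fold. Panx3 had the narrowest spread of the members, 0.0528, and whether its probe set was above background cannot be read from centred values. Of 9 markers of chondrocytes, another setting in which Panx3 is known, 1 was higher, 1 lower and 7 did not pass. Sox9 was the higher one (0.59 ± 0.07), Col2a1 the lower one (-1.01 ± 0.06), and the median of the 9 markers was 0.09. Their means ran from -0.05 to 0.05 on undifferentiated and from -0.03 to 0.02 on differentiated arrays.

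Without regard to the test, the groups did not overlap for 5 of 7 members, against 46.2% of all genes. For 3 members, Gja1, Gjc1 and Panx1, the differentiated arrays were the lower ones, against 23% of all genes. The others were Panx2 and Panx3, whose gaps were 0.01 or less. The within-array difference Panx3 minus Panx1 rose from -0.19 ± 0.11 to 0.35 ± 0.24 (SD, n = 3 each), a shift of 0.54. That of Gja1 minus Panx3 went from 1.27 ± 0.07 to -1.28 ± 0.08, a shift of -2.55. Exact two-sided permutation tests gave p = 0.1 for both, again the smallest possible, and 0.133 adjusted over the 4 pairs.

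**Figure D2:**
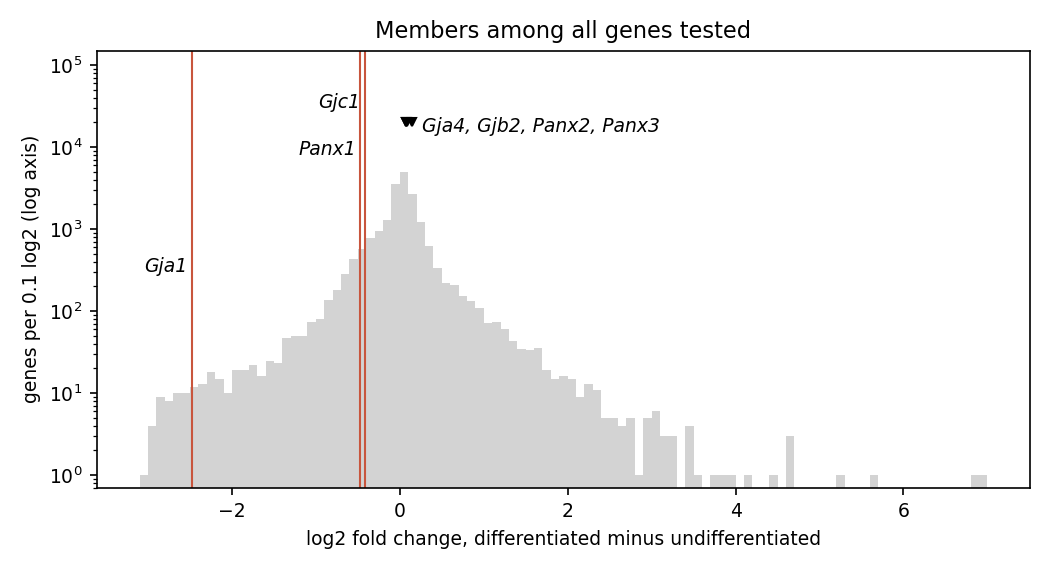
Number of genes (log axis) per 0.1 of log2 fold change, differentiated minus undifferentiated, for all 19938 genes; red lines mark the falling members and triangles the 4 that did not pass. Gja1, at -2.48, lies in the far left tail, and Panx1 and Gjc1, at -0.47 and -0.42, lie on the left shoulder.

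No other measured connexin passed. Of 12 further connexins, 0 were higher and 0 lower in limma (2 and 0 at an unadjusted p under 0.05), with log2 fold changes from -0.05 (Gje1) to 0.19 (Gja3) and a median of 0.09. Gja3 (0.19 ± 0.08, adjusted p = 0.0945) and Gjb1 (0.18 ± 0.08, adjusted p = 0.106) came nearest. Gja3 passed when undifferentiated replicate 2 was left out (0.26, adjusted p = 0.0384). Gja5, an arterial connexin like Gja4, was at 0.16 ± 0.08 (adjusted p = 0.158). Over the 19 measured genes of both families, 3 were lower, 0 higher and 16 did not pass, against 19.1% lower and 35.5% called over all genes.

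**Figure D3:**
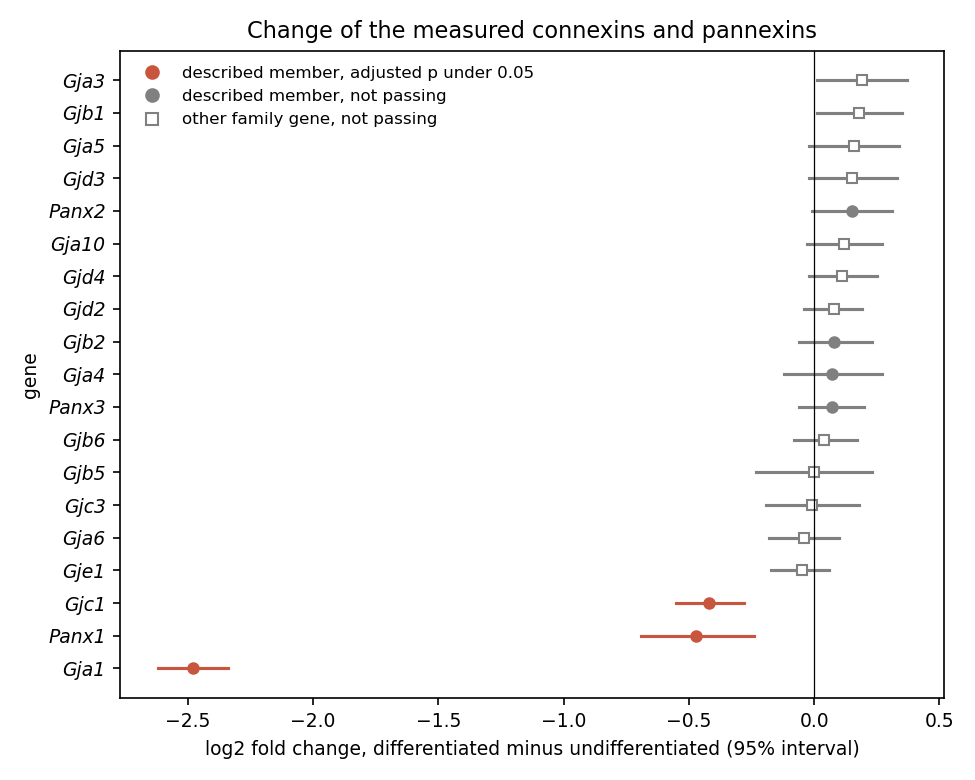
Log2 fold change, differentiated minus undifferentiated, of the 19 measured connexins and pannexins with limma's 95% intervals, which are not adjusted for multiple tests; circles are the 7 genes described and open squares the other 12. The 3 intervals in red, Gja1, Panx1 and Gjc1, lie below 0.

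The genes whose 6 values lay nearest to those of Gja1, by Euclidean distance in log2 units over all genes tested, were Ncapd2 (0.212), Ccnb2 (0.234), Prc1 (0.278), Aurka (0.283) and Birc5 (0.32). Ncapd2 encodes a condensin subunit, Ccnb2 a mitotic cyclin, Prc1 a midzone microtubule bundler, Aurka a mitotic kinase and Birc5 survivin. Ccnb2, for example, was at 1.11, 1.22 and 1.17 in undifferentiated and -1.11, -1.21 and -1.38 in differentiated replicates. With 2 groups of 3 arrays, likeness rests mostly on a change of the same size, here from -2.56 in Aurka to -2.38 in Ncapd2 and Birc5. The part of cell division in the Gja1 values was not tested.

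Genes whose proteins bind connexin43 or move it in the cell changed in both directions. Of 20 measured, 5 were higher, 5 lower and 10 did not pass, with a median log2 fold change of -0.02. Over all genes 16.4% were higher and 19.1% lower, and the median was 0.02. Tjp1, the ZO-1 scaffold that binds the connexin43 tail at the edge of gap junction plaques, was lower (-0.64 ± 0.06, adjusted p = 4.02e-05), as was the mitochondrial chaperone Hspa9 (-0.94 ± 0.05). Ezrin Ezr (1.98 ± 0.06), the matricellular protein Ccn3 (1.47 ± 0.09), which binds connexin43, and β-catenin Ctnnb1 (0.65 ± 0.05) were higher. N-cadherin Cdh2, whose adhesion accompanies gap junctions, was at -0.01 ± 0.06 (adjusted p = 0.944).

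Of 15 kinases and phosphatases tied to connexin43 phosphorylation, 3 were higher, 6 lower and 6 did not pass, with a median of -0.07. Over all genes 16.4% were higher and 19.1% lower. The lower ones numbered 4 without undifferentiated replicate 1 or 2 or differentiated replicate 3, when the casein kinases Csnk1e (-0.21 ± 0.06, adjusted p = 0.0296) and Csnk1a1 (-0.19 ± 0.06, adjusted p = 0.0244) lost their calls. The Src family kinase Fyn (-0.88 ± 0.05) and protein kinase C alpha Prkca (-0.46 ± 0.06) were lower. The kinase Camk2d (0.76 ± 0.05) and the phosphatases Ptprm (0.71 ± 0.06) and Ptpn1 (0.59 ± 0.07) were higher. Src itself was at -0.07 ± 0.11 (adjusted p = 0.689).

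Of 15 genes named as P2 receptors, 4 were higher, 0 lower and 11 did not pass. At an unadjusted p under 0.05 in limma, 0 were lower as well. All 4 higher ones were P2X receptors, the ATP-gated cation channels. Over all genes 16.4% were higher and 35.5% called in either direction. P2rx4 was at -1.15, -1.30 and -1.19 in undifferentiated and at 1.16, 1.15 and 1.15 in differentiated replicates. The groups lay far apart, with the differentiated arrays higher. P2rx4 rose 5.15-fold (2.37 ± 0.06, adjusted p = 2.09e-08). P2rx5 rose 3.30-fold (1.72 ± 0.07) and P2rx6 1.69-fold (0.76 ± 0.06).

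P2rx7, the receptor often studied together with Panx1, was at -0.57, -0.64 and -0.66 in undifferentiated and at 0.85, 0.78 and 0.57 in differentiated replicates. It rose 2.55-fold (1.35 ± 0.08, adjusted p = 1.53e-06) while Panx1 fell. The genes with P2Y names, which encode receptors that couple to G proteins, ran from -0.10 in P2ry10 to 0.20 in P2ry2, none past the threshold. P2ry2 passed without undifferentiated replicate 3 (0.29, adjusted p = 0.0175), which makes 5 receptors higher. The median of the 15 receptors was 0.07.

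Of 8 measured genes for breakdown of extracellular nucleotides and adenosine, 4 were higher, 1 lower and 3 did not pass. The median was 0.15. Over all genes 16.4% were higher and 19.1% lower. Nt5e, the ecto-5′-nucleotidase CD73 that makes adenosine from AMP, was at -0.85, -0.72 and -1.04 in undifferentiated and at 0.79, 0.78 and 0.72 in differentiated replicates. It rose 3.11-fold (1.64 ± 0.08, adjusted p = 6.32e-07). Entpd3, which hydrolyses ATP and ADP, rose 2.79-fold (1.48 ± 0.09), and Alpl 1.95-fold (0.96 ± 0.08).

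A pair of these calls was less firm. Adenosine deaminase Ada was lower (-0.57 ± 0.18, limma adjusted p = 0.0334), with overlapping groups, and it lost the call in 5 of 15 alternatives. These were cyclic loess (0.0776) and leaving out undifferentiated replicate 1 (0.071) or 2 (0.0851) or differentiated replicate 1 (0.116) or 2 (0.0917). Over the 15 alternatives its adjusted p ran from 0.00441 to 0.116. Entpd8 was higher (0.21 ± 0.07, limma adjusted p = 0.0468), but it also lost the call in 5 of 15 alternatives. These were a replicate block (0.0694) and leaving out undifferentiated replicate 1 (0.14) or 2 (0.105) or differentiated replicate 1 (0.145) or 3 (0.0601). Over the 15 alternatives its adjusted p ran from 0.0415 to 0.145.

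Of 15 other wide-pore channels and carriers of ATP, 5 were higher, 2 lower and 8 did not pass, against 16.4% higher and 19.1% lower over all genes. Their median was 0.13. Calhm5, a relative of the CALHM1 channel (1.54 ± 0.08, 2.92-fold), and the volume-regulated anion channel subunits Lrrc8c (1.19 ± 0.06), Lrrc8a (0.76 ± 0.07) and Lrrc8b (0.62 ± 0.07) rose. The vesicular nucleotide transporter Slc17a9 rose 1.42-fold (0.50 ± 0.05). Vdac3 (-0.59 ± 0.06) and Vdac1 (-0.55 ± 0.06), pores of the mitochondrial outer membrane, fell.

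**Figure D4:**
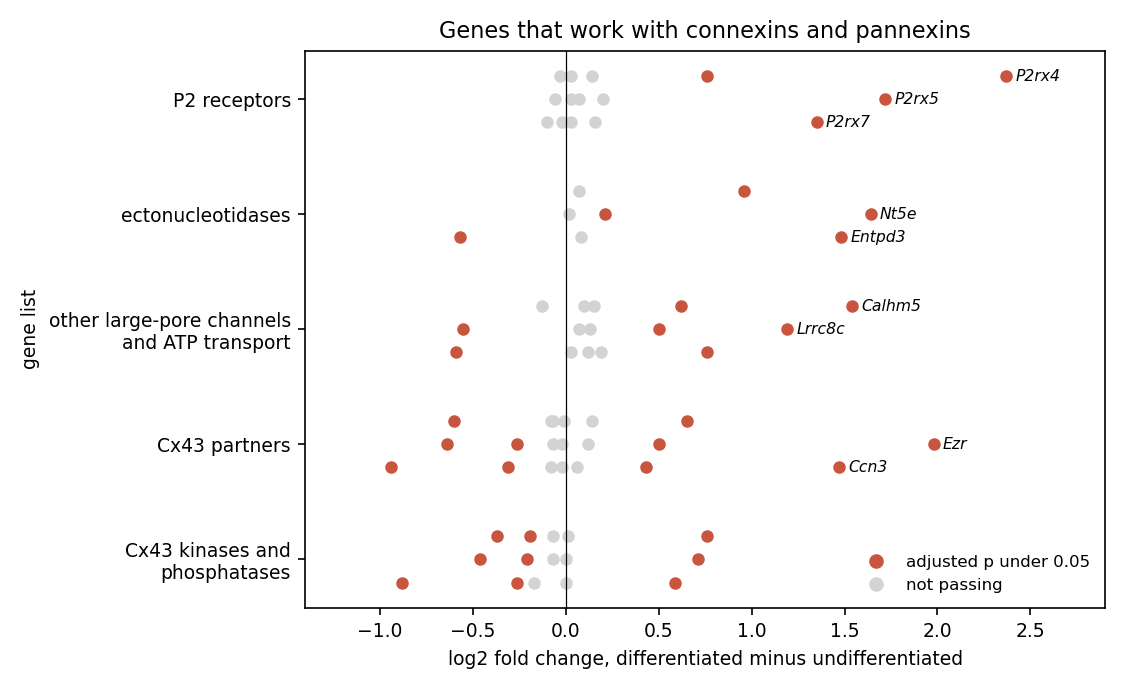
Log2 fold change, differentiated minus undifferentiated, of each measured gene in the 5 lists; red points passed an adjusted p under 0.05, grey points did not, and genes with changes of 1 or more are named. The named points are all on the right, led by P2rx4 at 2.37.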

How the data were processed

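Biotin-labelled RNA from 3 undifferentiated and 3 differentiated MC3T3-E1 samples was measured on 1-colour arrays. The authors deposited log2 values made with RMA, per the submitters' processing notes. The log base is that of the method, whose version is not stated. The values themselves show a centring: in all 28856 probe sets the median over arrays is 0 (largest deviation 5e-07). The number of arrays limits the precision. The annotation names 1 gene for 21789 probe sets, several for 1621 and none for 5446. Symbols were updated by gene ID (21698 matched) with RefSeq of GRCm38.p6, and the mean was taken where a gene had more than 1 probe set (999 of 19938 genes). Groups come from the titles. limma 3.58.1 in R 4.3.3 (lmFit, eBayes, two-sided, no replicate block) was fitted to all genes and tested on simulated data, and promoters were searched in Python 3.11.15. Alternatives were a replicate block, 3 scalings, other uses of probe sets, array weights, robust eBayes and each array left out. All members are named whatever their result, with up to 4 called members per list by size, others with a direct role, and the 5 genes nearest to Gja1. Cdh2, Src, Prkca, Gja5, Slc17a9, the Vdac genes, Entpd8, single markers and range ends were named after their values were seen. Members and lists were chosen with earlier results of these data known. List genes outside the tested set, such as the adenosine receptors, were not analysed here. The other marker lists gave 3 higher and 2 lower of 6 (osteoblast), 1 and 0 of 9 (macrophage and osteoclast) and 2 and 0 of 7 (smooth muscle). Among all genes tested, 16.4% were higher and 19.1% lower.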

Additional observations from a re-analysis of the deposited data

How the results depend on the processing

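The count of 3 falling members and 0 rising ones held in each of the 15 alternatives run, and no member changed its side of the threshold. Each member has 1 probe set, so the other uses of probe sets could not alter its log2 fold change. Those settings changed only the other genes in the fit and the adjustment. Gja1 ranged from -2.63 to -2.43 on the log2 scale, Gjc1 from -0.45 to -0.38 and Panx1 from -0.65 (after cyclic loess) to -0.41, with adjusted p-values of at most 4.36e-06, 0.00287 and 0.0238. The 4 members that did not pass had adjusted p-values of at least 0.0882. The sign of Gja4 turned without differentiated replicate 3. Calls over all genes numbered 6003 to 7523 when 1 array was left out, against 7070. Deviations of same-numbered arrays from the group means correlated at -0.00133, 0.0692 and 0.162 for replicates 1 to 3, not all over 0.1, so the numbers were not taken as pairs. Undifferentiated replicates 2 and 3 correlated best with their own number, and replicate 1 with differentiated replicate 2 (0.135). With the replicate number as a block, 3 members were lower and Panx1 had an adjusted p of 9.48e-04. Besides Ada and Entpd8, calls near the threshold were lost under some alternatives by Csnk1e, Csnk1a1, Vwf and Syn1, and by Sp7 after cyclic loess. Besides Gja3 and P2ry2, calls were gained under some alternatives by Vdac2, Calhm1, Krt10, Pecam1, Epcam and Col9a1. The shifts between pairs of members moved from -2.11 to -1.99 for Gja1 minus Gjc1, from 0.44 to 0.67 for Panx3 minus Panx1 and from -2.59 to -2.51 for Gja1 minus Panx3 when 1 array was left out. Filters on dim probe sets need a level, which centred values lack.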

Other observations

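Of 14 protein-coding genes that flank the members in RefSeq, 3 were lower, 1 higher, 7 did not pass and 3 were not analysed here. The shares over all genes were 19.1% lower and 16.4% higher. Beside Gja1, Hsf2, a heat shock transcription factor gene, was lower by much less (-0.51 ± 0.08, limma adjusted p = 9.69e-04), and Msl3l2 was at -0.01 ± 0.11 (0.972). Beside Gjc1, Adam11 (0.11 ± 0.06) and Higd1b (0.08 ± 0.07) did not pass, nor did Izumo1r (0.16 ± 0.06) and Hephl1 (-0.04 ± 0.06) beside Panx1. Gjb2 lies between its relatives Gja3 and Gjb6, neither of which passed. Trabd, next to Panx2, was lower (-0.73 ± 0.06), and Mov10l1 on its other side was higher (0.15 ± 0.05, adjusted p = 0.0483), with the same rounded change as Panx2 itself, which did not pass. Tbrg1, next to Panx3, was lower (-0.24 ± 0.06). The flanking genes were looked up after the members' values were seen.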
